A study of Mus musculus with 6 samples.

Results

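The genes described here encode the proteins of the mitochondrial ribosome and carry the symbols Mrpl, for the large subunit, or Mrps, for the small subunit, followed by a number. Of the 23420 gene rows counted, 76 had such a symbol, 47 of them Mrpl and 29 Mrps. They were measured in RNA from a single mouse line of dysplastic epithelial organoids, Meta4, from which dysplastic stem cells had been isolated by flow sorting. Sorted cells called TP-DSCs (3 libraries) were compared with sorted cells called DP-DSCs (3 libraries). The labels do not spell the letters out; what is known of the study gives them as triple and double positive for surface proteins, with CD133 (Prom1) and CD166 (Alcam) on both populations and the v6 form of CD44 on TP-DSCs in addition. The labels name no genotype, treatment or age for either population, so both share whatever the Meta4 line carries.

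Mitochondrial ribosomes translate the few messenger RNAs that are transcribed from mitochondrial DNA, all of which encode subunits of the respiratory chain or the ATP synthase. Their proteins are all encoded in the nucleus, made in the cytosol and imported, whereas their ribosomal RNAs are transcribed inside the organelle. Some of the proteins descend from bacterial ribosomal proteins and others are found only in mitochondrial ribosomes, where they occupy much of the surface of the particle. Loss of this machinery is known to impair the assembly of the respiratory chain in many tissues, epithelia among them. The messenger RNAs made from mitochondrial DNA had no row in the files and are not analysed here.

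The TP-DSC libraries held 17015581 to 31068454 reads assigned to genes, against 27027919 to 32671039 in the DP-DSC libraries. Reads fell on 10571 to 10982 genes in TP-DSC libraries and on 12504 to 14434 genes in DP-DSC libraries. Reads outside any gene made up 16.2 to 20.3% in TP-DSC libraries and 14.1 to 15.4% in DP-DSC libraries. The 7 epithelial and sort markers summed to 7907 to 8949 CPM (read counts scaled to the library's total of gene reads) in TP-DSC libraries and 8581 to 9658 CPM in DP-DSC libraries. Of the fibroblast markers 2 of 8 had reads, summing to at most 2.90 CPM in TP-DSC and 3.19 CPM in DP-DSC libraries. Of the endothelial markers 3 of 5 had reads, with at most 4.995 CPM in TP-DSC and 1.78 CPM in DP-DSC libraries, and of the immune markers 5 of 9, with 0 CPM in TP-DSC and at most 0.828 CPM in DP-DSC libraries. Erythroid markers had no reads in any library. Other cell types were therefore at or near 0 by these markers in both populations.

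The mitochondrial ribosomal protein genes had summed levels that differed between the populations by less than the spread between libraries. Large subunit members summed to 2737, 2835 and 2460 CPM in TP-DSCs replicates 1, 2 and 3, against 2600, 2668 and 2713 CPM in DP-DSCs replicates 1, 2 and 3. Small subunit members summed to 1359, 1456 and 1172 CPM in TP-DSCs, against 1283, 1401 and 1396 CPM in DP-DSCs. For both subunits the 3 DP-DSC sums lay inside the range of the 3 TP-DSC sums. The means were 2677 ± 195 CPM in TP-DSCs and 2660 ± 56.8 CPM in DP-DSCs for the large subunit (SD, n = 3 each), a ratio of 1.01. For the small subunit they were 1329 ± 145 CPM in TP-DSCs and 1360 ± 66.8 CPM in DP-DSCs (SD, n = 3 each), a ratio of 0.977. Since each value is a share of a library's reads from many sorted cells, fewer cells that express a gene and less of its RNA per cell cannot be told apart.

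The balance between the subunits differed by less than its spread as well. The summed large subunit level was 2.01, 1.95 and 2.099 times the small subunit level in TP-DSCs, against 2.03, 1.90 and 1.94 times in DP-DSCs. The ratio averaged 2.02 ± 0.0765 in TP-DSCs and 1.96 ± 0.0625 in DP-DSCs (SD, n = 3 each), with overlapping libraries. Symbols do not always give the subunit: the proteins of Mrps30 and Mrps18a sit in the large subunit of the mammalian particle, and the Mrps36 protein belongs to the 2-oxoglutarate dehydrogenase complex. With those 3 genes placed accordingly, the ratio was 2.24 ± 0.0914 in TP-DSCs and 2.24 ± 0.0659 in DP-DSCs. The larger large subunit sum is partly its larger number of genes; divided by transcript length, large subunit members averaged 51.2 ± 4.54 CPM per kilobase in TP-DSCs and 50.5 ± 1.46 in DP-DSCs, and small subunit members 38.8 ± 3.84 in TP-DSCs and 38.9 ± 2.16 in DP-DSCs.

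**Figure D1:**
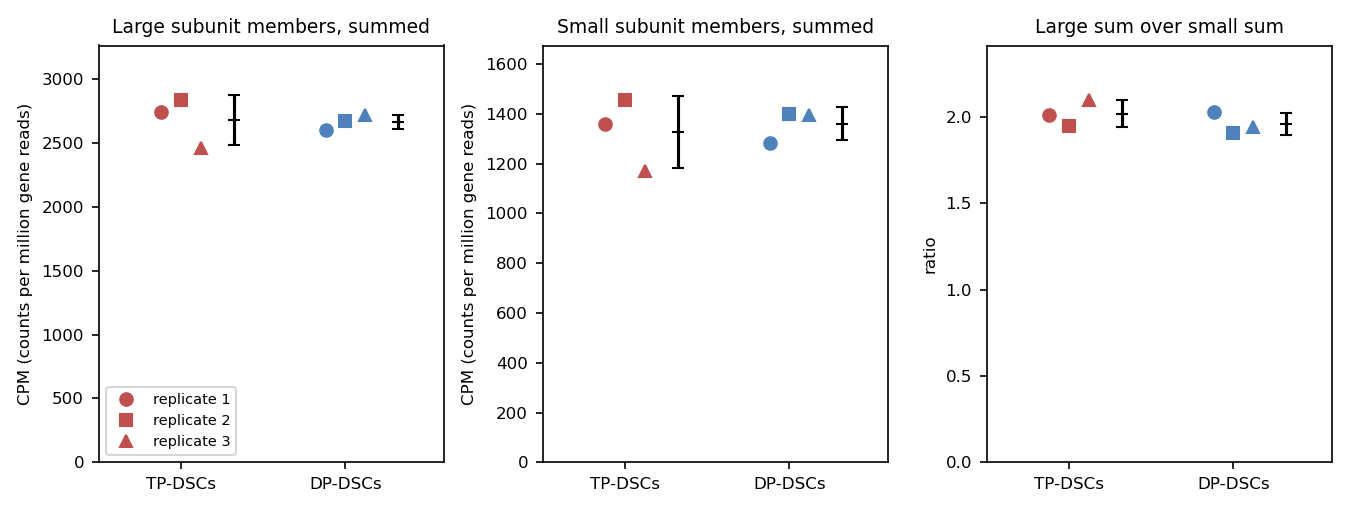
Summed CPM of the 47 large subunit members (left) and the 29 small subunit members (middle) and their ratio (right) in each library; symbols mark replicates 1, 2 and 3, and the bar to the right of each group is the mean with its SD. TP-DSC and DP-DSC libraries overlap in all 3 panels, and the TP-DSC sums are the more widely spread.

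Library names carry 3840 or 4140. The labels do not say what these numbers mark, and calling them sequencing submissions is an assumption made here and kept below. Each submission so defined held libraries of both populations. Within submission 3840, with 1 library of each, the log2 ratio of the summed level in TP-DSCs over DP-DSCs was 0.07 for the large and 0.08 for the small subunit. Within submission 4140, with 2 libraries of each, it was -0.02 for the large and -0.09 for the small subunit. The sign differed between the submissions and the size was small in both.

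Promoter sequences were compared because the genes share a product but not a place in the genome. The 76 genes lie on 17 chromosomes, with 10 of them on chromosome 11, the most on any chromosome. Within 1000 bases of the start of 17 members, another protein-coding gene starts in the opposite direction, as Sars2, which encodes the mitochondrial seryl-tRNA synthetase, does 172 bases from Mrps12. RefSeq promoter windows, 250 bases before to 30 bases after the start on GRCm38.p6, were found for 67 members, 41 of the large and 26 of the small subunit. Motifs were searched on both strands: GCGCA and GCGC with any 1 base between them for NRF1, and CCGGAAG for ETS factors such as GABP, both known activators of nuclear genes for mitochondria, and AAGATGGCG for YY1.

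The ETS letters occurred in 21 of the 67 member windows (31.3%) and in 11.4% of 17492 windows of protein-coding genes. For NRF1 the counts were 12 of 67 (17.9%) against 6.3% of all coding windows, and for YY1 4 of 67 (5.97%) against 1.37%. For other elements the shares of member windows and of all coding windows were as follows: GGGCGG, bound by SP factors, in 49.3% against 45.1%, CCAAT in 37.3% against 38.1%, the E-box CACGTG in 7.46% against 7.58%, and TATAAA in 5.97% against 13%. Member windows had a median GC content of 58.2%, against 56.1% for all coding windows. These are letter matches, given as a description and with no test.

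Windows of 4 members are shown, on the plus strand from 5′ to 3′, with matches to NRF1, ETS or YY1 in capitals. Mrpl33 (chr5:31613701-31613980), the member with the highest level per kilobase as the mean over both populations at the median transcript length, holds an ETS match at its RefSeq start. Mrpl12 (chr11:120484387-120484666), the member with the most reads, holds an NRF1 match upstream of its start. Mrps26 (chr2:130563507-130563786), whose mean level was the same in both populations to 3 digits, holds 1 ETS match and 2 overlapping NRF1 matches. Mrps2 (chr2:28467816-28468095), the small subunit member with the largest positive difference, has none of the 3 motifs in this window.

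Mrpl33: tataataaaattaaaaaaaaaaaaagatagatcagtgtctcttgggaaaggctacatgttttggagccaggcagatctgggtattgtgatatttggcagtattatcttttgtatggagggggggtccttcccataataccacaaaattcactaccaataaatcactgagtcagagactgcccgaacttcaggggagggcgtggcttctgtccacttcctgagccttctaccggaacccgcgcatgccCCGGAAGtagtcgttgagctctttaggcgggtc

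Mrpl12: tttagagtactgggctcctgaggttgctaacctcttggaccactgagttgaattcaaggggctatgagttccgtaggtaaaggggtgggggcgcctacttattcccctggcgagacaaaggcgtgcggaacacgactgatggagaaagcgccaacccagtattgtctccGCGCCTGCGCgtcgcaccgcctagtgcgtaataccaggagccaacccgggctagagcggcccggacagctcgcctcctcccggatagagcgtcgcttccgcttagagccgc

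Mrps26: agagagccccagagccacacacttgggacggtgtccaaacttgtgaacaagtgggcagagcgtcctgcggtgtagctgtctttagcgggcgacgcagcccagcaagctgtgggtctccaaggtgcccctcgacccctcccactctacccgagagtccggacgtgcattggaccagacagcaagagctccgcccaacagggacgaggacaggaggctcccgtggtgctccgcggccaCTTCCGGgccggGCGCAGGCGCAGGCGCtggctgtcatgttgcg

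Mrps2: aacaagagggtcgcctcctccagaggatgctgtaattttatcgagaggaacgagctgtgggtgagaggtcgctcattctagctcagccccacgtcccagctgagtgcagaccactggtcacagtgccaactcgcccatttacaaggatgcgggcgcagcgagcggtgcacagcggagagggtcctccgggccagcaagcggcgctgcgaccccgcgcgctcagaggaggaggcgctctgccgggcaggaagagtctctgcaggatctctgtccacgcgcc

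Medians were close to 0 for members with and without these matches. The 21 members with an ETS match had a median log2 fold change in TP-DSCs over DP-DSCs of -0.03, against -0.07 for the 46 without. The 12 members with an NRF1 match had a median of 0.04, against -0.08 for the 55 without.

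Per kilobase of transcript, levels ranged widely between members and little between the populations. Ranked by the mean over both populations at each gene's median transcript length, the highest large subunit members were Mrpl33, whose bacterial relative lies near the tRNA exit site, at 163 CPM per kilobase in TP-DSCs and 123 in DP-DSCs; Mrpl20, a core protein, at 159 in TP-DSCs and 123 in DP-DSCs; and Mrpl30 at 138 in TP-DSCs and 132 in DP-DSCs. Mrpl12, which forms the stalk where translation factors bind, followed with 126 in TP-DSCs and 132 in DP-DSCs, and in DP-DSCs alone both Mrpl30 and Mrpl12 stood above Mrpl33. In the same ranking the highest small subunit members were Mrps21 (127 in TP-DSCs and 122 in DP-DSCs), Mrps34 (107 in TP-DSCs and 86.7 in DP-DSCs) and Mrps24 (61.0 in TP-DSCs and 69.4 in DP-DSCs). In TP-DSCs alone further small subunit members stood above Mrps24, of which Mrps18c (67.9) and Mrps12 (67.2) were the highest. The lowest large subunit members also had bacterial relatives and were Mrpl47 (6.07 in TP-DSCs and 5.72 in DP-DSCs), Mrpl35 (9.84 in TP-DSCs and 7.83 in DP-DSCs) and Mrpl19 (10.2 in TP-DSCs and 9.82 in DP-DSCs). In the small subunit the lowest were Mrps25 (6.60 in TP-DSCs and 7.47 in DP-DSCs), Mrps5 (11.8 in TP-DSCs and 12.5 in DP-DSCs) and Mrps26 (13.0 in TP-DSCs and 12.9 in DP-DSCs).

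Across the 76 members, the log2 mean CPM of TP-DSCs and DP-DSCs correlated with a Pearson r of 0.923, given as a description across genes, which are not replicates. The genes at the low end have long transcripts, 6073 bases for Mrps25, 5000 for Mrpl19 and 4481 for Mrps5, with a single annotated one each. Towards the high end the choice of transcript matters: with its longest in place of its median transcript, Mrpl20 falls to 91.1 CPM per kilobase, against 141 as the mean over both populations, and with its shortest Mrps23 reaches 218, against 54.3. At the high end the differences between neighbours were smaller than the spread between libraries: Mrpl33 had 62.3, 109 and 62.4 CPM in TP-DSCs, against 51.3, 61.4 and 63.6 CPM in DP-DSCs, and Mrpl20 had 64.4, 127 and 43.9 CPM in TP-DSCs, against 55.3, 69.1 and 57.3 CPM in DP-DSCs.

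**Figure D2:**
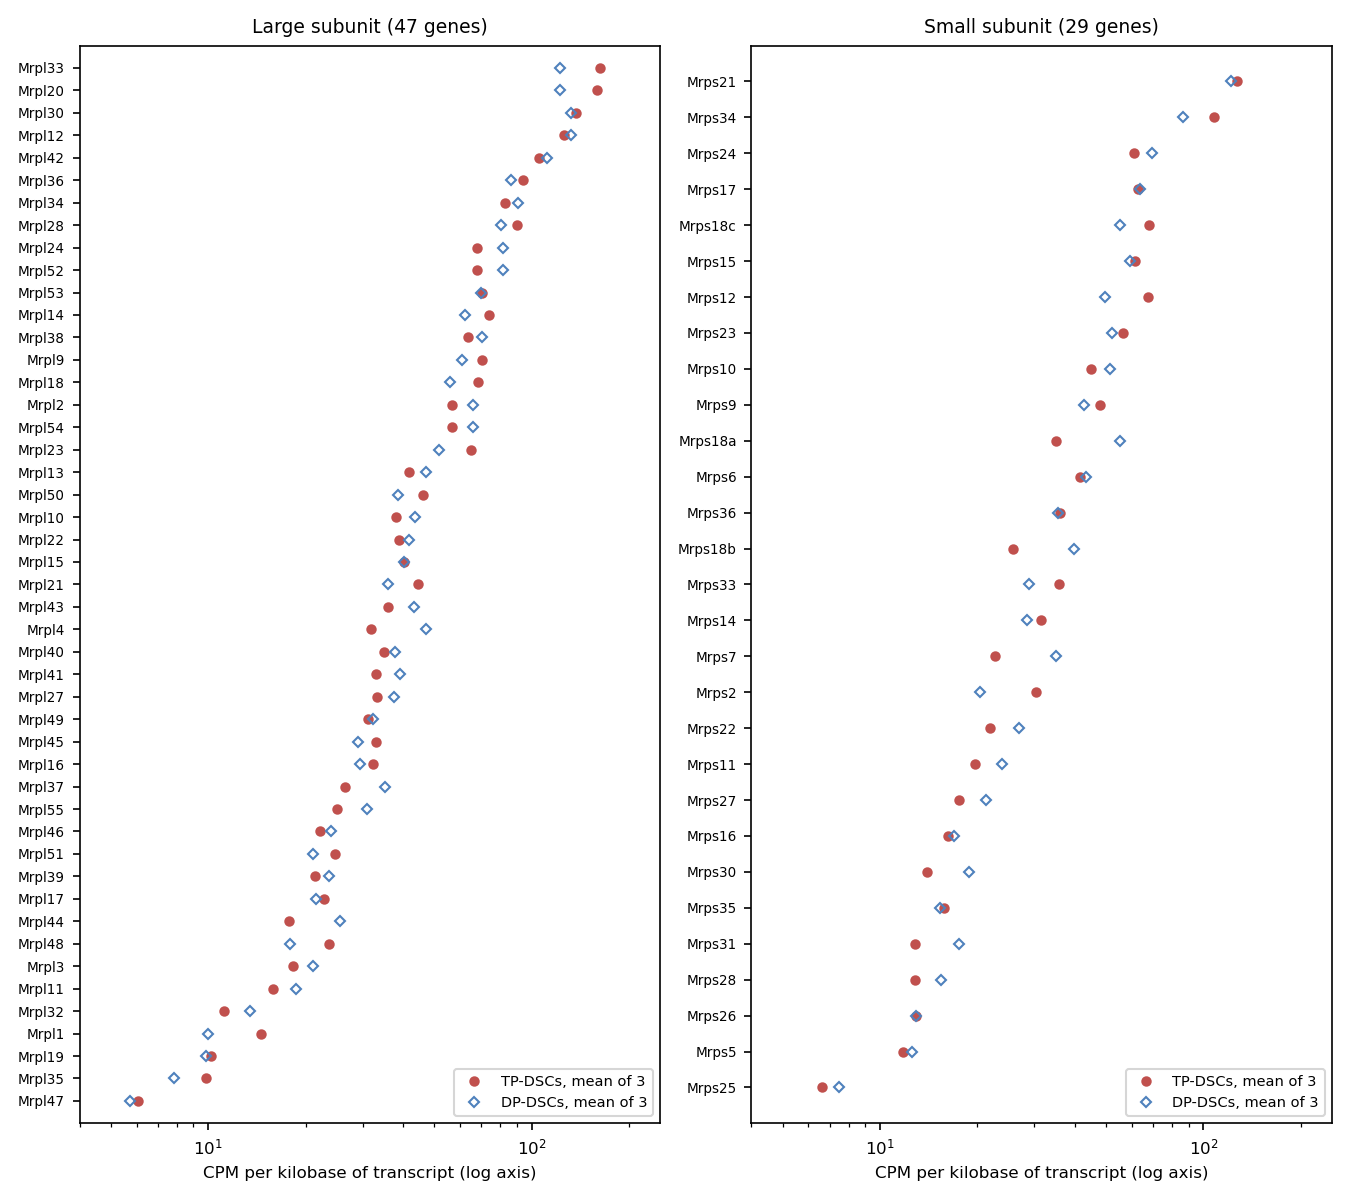
Mean CPM per kilobase of transcript (log axis) of each large subunit member (left) and small subunit member (right), sorted by the mean over both populations; filled circles are TP-DSCs and open diamonds DP-DSCs, each the mean of 3 libraries. Symbols of a gene lie close together, and levels run from 5.89 for Mrpl47 to 143 for Mrpl33 as the mean over both populations.

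No member changed between the populations by edgeR's quasi-likelihood test at a Benjamini-Hochberg adjusted p of 0.05. All 76 members had enough reads to be tested, and 0 were called, as were 0 of all 11925 genes tested (0%). Without adjustment, 0 members and 728 genes (6.1%) had a p under 0.05, of which 171 (1.43%) were higher and 557 (4.67%) lower in TP-DSCs. DESeq2 called 267 of the 14318 genes to which it gave an adjusted p (1.86%), with 0 members among them, and limma-voom called 0 genes. At an unadjusted p under 0.05, DESeq2 gave 2 members, Mrps7 and Mrps2, against 1223 of 14602 genes (8.38%), and limma-voom gave 2, Mrps7 and Mrps18a, against 961 genes (8.06%). The smallest adjusted p of any member was 0.867 in edgeR, and a p that misses the threshold does not show that levels were equal.

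The fold changes were centred near 0 in both subunits. In the large subunit 20 members lay above 0 and 27 below, with a median log2 fold change in TP-DSCs over DP-DSCs of -0.08. In the small subunit 12 lay above 0 and 17 below, with a median of -0.05. Over all genes tested the median was -0.02 and 48.2% lay above 0, against 42.1% of the members. Leaving out TP-DSCs replicate 3 turned both medians, to 0.03 for the large and 0.11 for the small subunit, and left 44 members above 0 and 32 below, so the direction rested on that library. All members lay between -0.69 and 0.55.

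**Figure D3:**
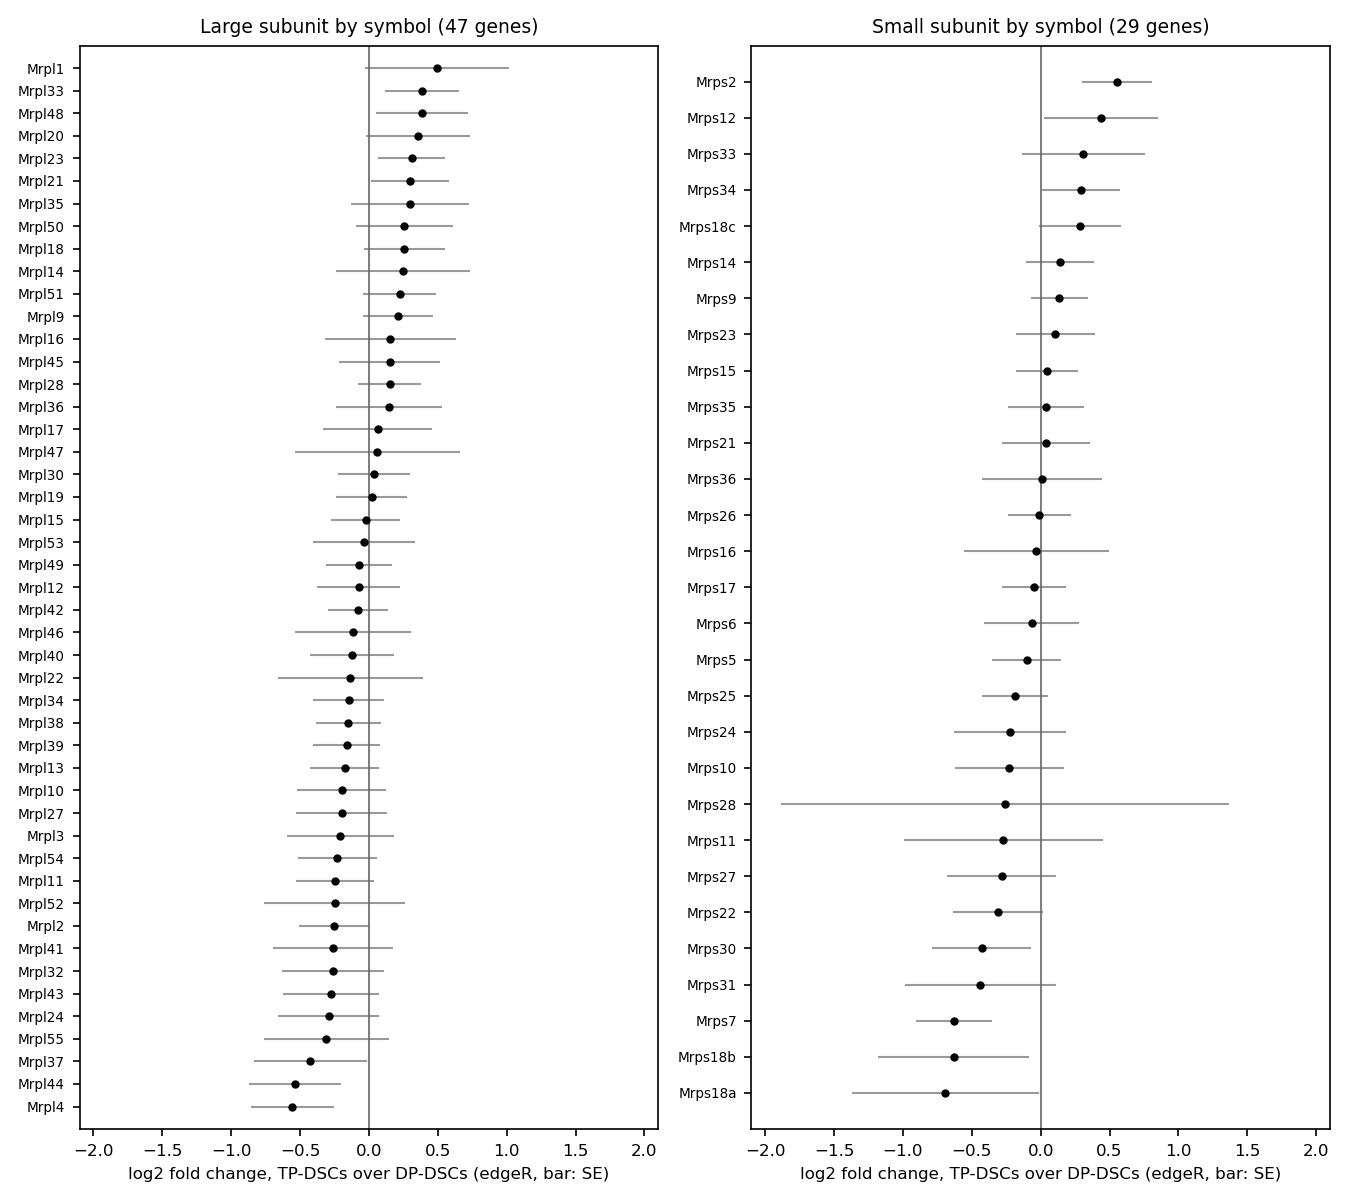
Log2 fold change in TP-DSCs over DP-DSCs with its standard error from edgeR for each of the 47 large subunit members (left) and 29 small subunit members (right), sorted by size. Points run from -0.69 for Mrps18a to 0.55 for Mrps2, and 0 of the 76 passed the threshold.

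Among the small subunit proteins that take the place of a bacterial ribosomal protein, 7 of 15 lay above 0. Mrps7 (chromosome 11, 115603925 to 115608036, plus strand, mm10) and Mrps2 (chromosome 2, 28468066 to 28471178, plus strand) were the members with the smallest p. Mrps7, a protein of the small subunit head near the path of the messenger RNA, had 46.5, 55.2 and 32.1 CPM in TP-DSCs, against 58.9, 83.0 and 64.8 CPM in DP-DSCs. All 3 TP-DSC libraries were below all 3 DP-DSC libraries. The log2 fold change was -0.63 ± 0.28 (SE), with an unadjusted p of 0.0555 and an adjusted p of 0.867 in edgeR. Exons of Mrps7 overlap those of Gga3 and Mif4gd in the annotation, and reads there may have been assigned to either gene.

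Mrps2, a protein of the small subunit body, had 50.1, 84.2 and 55.4 CPM in TP-DSCs, against 40.6, 46.7 and 40.0 CPM in DP-DSCs. Here all TP-DSC libraries were above all DP-DSC libraries. The log2 fold change was 0.55 ± 0.25 (SE), with an adjusted p of 0.915 in edgeR. Within the submissions, Mrps7 had log2 ratios of -0.34 in 3840 and -0.76 in 4140, and Mrps2 of 0.30 in 3840 and 0.69 in 4140. Groups that do not overlap must give the same sign in each submission, so the shared sign adds no support.

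Of the others in that set, Mrps12, which forms part of the decoding centre, had 63.2, 73.8 and 24.8 CPM in TP-DSCs, against 36.6, 43.5 and 39.3 CPM in DP-DSCs. Its replicate 3 in TP-DSCs was the lowest and its replicate 2 the highest of the 6 libraries, and the log2 fold change was 0.44 ± 0.42. Mrps24 had 44.4, 34.0 and 104 CPM in TP-DSCs, against 68.8, 61.0 and 77.3 CPM in DP-DSCs, so that the TP-DSC values enclosed the DP-DSC values. Mrps21 likewise had 42.2, 43.0 and 85.0 CPM in TP-DSCs, against 42.5, 65.3 and 55.8 CPM in DP-DSCs. Mrps5, at the entry of the messenger RNA channel, differed by -0.10 ± 0.25 on the log2 scale.

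Mammals have 3 relatives of the bacterial protein S18, each with its own place in the particle. Mrps18c, which takes the place of S18, had 44.2, 33.4 and 52.3 CPM in TP-DSCs, against 28.2, 38.2 and 39.6 CPM in DP-DSCs. Mrps18b, elsewhere in the small subunit, had 24.7, 39.5 and 8.53 CPM in TP-DSCs, against 38.9, 43.0 and 30.01 CPM in DP-DSCs. Mrps18a (chromosome 17, 46110986 to 46128910, plus strand), in the large subunit, had 16.5, 55.7 and 6.95 CPM in TP-DSCs, against 40.9, 41.6 and 42.2 CPM in DP-DSCs. The Mrps18a values were 8.01-fold apart between TP-DSC libraries and 1.03-fold apart between DP-DSC libraries, and the TP-DSC values lay on both sides of the DP-DSC values. The log2 fold changes were 0.29 ± 0.30 for Mrps18c, -0.63 ± 0.55 for Mrps18b and -0.69 ± 0.68 for Mrps18a, each with an adjusted p of 0.999 in edgeR. Single libraries moved them: Mrps18a was at -1.78 without TP-DSCs replicate 2 and -0.23 without replicate 3, and Mrps18b at -1.11 without replicate 2 and -0.21 without replicate 3.

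Mrps30 (chromosome 13, 118378381 to 118387252, minus strand) encodes the other protein with a small subunit name and a place in the large subunit. It had 50.9, 24.9 and 63.6 CPM in TP-DSCs, against 53.9, 69.8 and 63.4 CPM in DP-DSCs. Summed, Mrps30 and Mrps18a reached 67.4, 80.6 and 70.5 CPM in TP-DSCs, against 94.8, 111 and 106 CPM in DP-DSCs. These sums did not overlap, while the libraries of each gene alone did. In TP-DSCs replicate 2, Mrps30 was at its lowest and Mrps18a at its highest of the 6 libraries. Among all single genes tested, 8.56% had all TP-DSC libraries below all DP-DSC libraries. The sum of the pair was given no test, and neither gene passed one. Mrps36, whose protein belongs to a dehydrogenase complex, had 28.7, 22.4 and 17.6 CPM in TP-DSCs, against 23.9, 17.8 and 26.0 CPM in DP-DSCs, with a log2 fold change of 0.01 ± 0.43.

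Among 10 small subunit proteins whose place has no counterpart in the bacterial ribosome, Mrps18b included, 4 lay above 0; Mrps28 was put in neither set. Mrps34, needed for a stable small subunit, had 108, 119 and 69.2 CPM in TP-DSCs, against 92.3, 67.7 and 78.7 CPM in DP-DSCs. Mrps26 was among the steadiest, with 58.4, 60.9 and 47.0 CPM in TP-DSCs, against 54.9, 57.7 and 53.6 CPM in DP-DSCs. Mrps25 had 39.3, 43.0 and 38.0 CPM in TP-DSCs, against 39.3, 48.5 and 48.2 CPM in DP-DSCs, a log2 fold change of -0.19 ± 0.24. The groups overlapped in all 3 genes.

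Mrps28 (chromosome 3, 8802146 to 8923918, minus strand), the member with the lowest mean CPM, was the only one that lacked reads in a library. It had 15.6, 14.5 and 0 CPM in TP-DSCs, against 12.2, 9.09 and 14.9 CPM in DP-DSCs. A count of 0 in TP-DSCs replicate 3 allows up to 0.0966 CPM (3 counts of the library's gene reads, counting error alone). Of the 844 tested genes with a mean over all 6 libraries between 10 and 15 CPM, 4.74, 9.83 and 10.9% were without reads in TP-DSCs replicates 1, 2 and 3, against 0.118, 0.237 and 0% in DP-DSCs replicates 1, 2 and 3. For the 822 genes with a TP-DSC mean in that range the shares were 4.87, 9.25 and 8.15% in the TP-DSC libraries, against 0, 0.365 and 0% in the DP-DSC libraries. Replicate 3 is the deepest of the TP-DSC libraries. The part of this in the Mrps28 value was not tested.

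In the large subunit, 16 of the 29 members that take the place of a bacterial protein lay above 0, with a median log2 fold change of 0.04, and 4 of the 17 without such a counterpart, with a median of -0.12. Mrpl55 was put in neither set. Without TP-DSCs replicate 3, 8 of those 17 lay above 0 with a median of -0.00311, and 17 of the 29 with a median of 0.12. Both medians rose without that library, and that of the members without a bacterial counterpart stayed the lower. Of the 8 core proteins 4 lay above 0, of the 6 proteins around the exit of the peptide tunnel 4, of the 5 proteins of the central protuberance 2, and of the 3 stalk proteins (Mrpl10, Mrpl11 and Mrpl12) 0. None of them was called.

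Mrpl4 (chromosome 9, 21002738 to 21008839, plus strand) and Mrpl2 are core proteins with extensions into the ribosomal RNA. Mrpl4 had 54.3, 31.6 and 37.6 CPM in TP-DSCs, against 63.4, 61.0 and 57.5 CPM in DP-DSCs. All TP-DSC libraries were below all DP-DSC libraries, and the log2 fold change was -0.56 ± 0.30 with an adjusted p of 0.999 in edgeR. Mrpl2, beside the site where peptide bonds form, had 41.9, 75.7 and 52.3 CPM in TP-DSCs, against 67.2, 63.1 and 67.7 CPM in DP-DSCs, and the groups overlapped.

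Mrpl23 (chromosome 7, 142532686 to 142540747, plus strand), at the exit of the peptide tunnel, had 44.2, 45.5 and 45.5 CPM in TP-DSCs, against 37.6, 34.1 and 36.0 CPM in DP-DSCs. All TP-DSC libraries were above all DP-DSC libraries, and the 3 TP-DSC values were only 1.03-fold apart, the closest of any member. The log2 fold change was 0.31 ± 0.25 with an adjusted p of 0.999 in edgeR, which moderates each gene's spread towards that of genes of like level. Mrpl23 and Mrps2 were the 2 members with all TP-DSC libraries above all DP-DSC libraries, where 462 of all genes (3.87%) were so placed. Mrpl4 and Mrps7 were the 2 members with the opposite order, where 1021 genes (8.56%) were so placed.

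Mrpl45, the protein through which the mammalian ribosome meets the inner membrane, had 82.1, 58.7 and 99.8 CPM in TP-DSCs, against 89.6, 41.7 and 80.4 CPM in DP-DSCs. It was 2.15-fold apart between DP-DSC libraries, more than the 1.70-fold between TP-DSC libraries. Mrpl47, also near the tunnel exit, had 18.1, 8.05 and 35.1 CPM in TP-DSCs, against 19.2, 18.0 and 20.5 CPM in DP-DSCs. Its TP-DSC libraries enclosed the DP-DSC libraries. Mrpl12 (chromosome 11, 120484613 to 120489065, plus strand), also known to bind the mitochondrial RNA polymerase, had 197, 200.3 and 99.6 CPM in TP-DSCs, against 183, 177 and 162 CPM in DP-DSCs. TP-DSCs replicate 3 stood below the other 5 libraries, and the log2 fold change was -0.08 ± 0.30.

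Of the large subunit proteins with no counterpart in the bacterial ribosome, Mrpl44, which resembles a ribonuclease, had 19.8, 28.4 and 27.6 CPM in TP-DSCs, against 25.2, 45.1 and 38.5 CPM in DP-DSCs, a log2 fold change of -0.54 ± 0.34. Mrpl37 had 36.7, 19.7 and 62.7 CPM in TP-DSCs, against 51.2, 51.0 and 55.7 CPM in DP-DSCs. Mrpl48, of the central protuberance, had 50.6, 29.7 and 51.4 CPM in TP-DSCs, against 34.9, 29.1 and 35.9 CPM in DP-DSCs, a log2 fold change of 0.39 ± 0.33. The populations overlapped in each of them. Bacterial-type Mrpl21 differed by 0.30 ± 0.28 and Mrpl33 by 0.39 ± 0.27 on the log2 scale, each with an adjusted p of 0.999 in edgeR.

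What differed in size between the populations was the spread from library to library. Over the 76 members, the median coefficient of variation of CPM (SD over mean, n = 3) was 31.1% in TP-DSCs and 12.3% in DP-DSCs, and it was larger in TP-DSCs for 63 members (82.9%). It was 31.4% in TP-DSCs and 11.2% in DP-DSCs for large subunit members, and 31.1% in TP-DSCs and 13.0% in DP-DSCs for small subunit members. The highest library was over 2 times the lowest for 33 members (43.4%) in TP-DSCs and for 3 (3.95%) in DP-DSCs. Among other tested genes in the members' range of mean CPM these shares were higher, 49.5% in TP-DSCs and 16.9% in DP-DSCs. Counting error alone gives about 2.45 to 3.59% at the median member's read number in these libraries. Within submission 4140, with 2 libraries of each population, the median coefficients of variation were 30.8% in TP-DSCs and 10.3% in DP-DSCs.

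The wider TP-DSC spread was shared with other genes. For the 8013 other tested genes in the members' range of mean CPM, the median coefficient of variation was 34.8% in TP-DSCs and 19.4% in DP-DSCs, and it was larger in TP-DSCs for 75.5%. Complex I genes named Nduf (43 tested), whose products are partly assembled with proteins that mitochondrial ribosomes make, had 26.1% in TP-DSCs and 9.94% in DP-DSCs. Cytosolic ribosomal protein genes (80 tested), which are much more abundant, had 20.1% in TP-DSCs and 20.1% in DP-DSCs. Within submission 4140 (n = 2 each) the medians were 28.4% in TP-DSCs and 14.2% in DP-DSCs for the 8013 genes. For complex I genes they were 21.9% in TP-DSCs and 8.72% in DP-DSCs. For cytosolic ribosomal protein genes they were 6.99% in TP-DSCs and 23.1% in DP-DSCs, the opposite order. Fewer genes had reads in the TP-DSC libraries and more reads fell outside genes there, as given above, and the part of these in the spread was not tested.

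**Figure D4:**
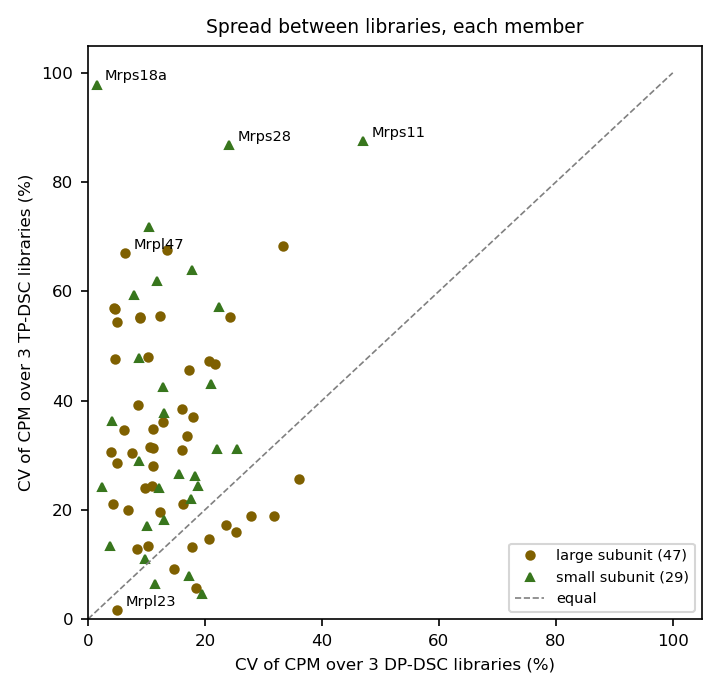
Coefficient of variation of CPM over the 3 TP-DSC libraries (vertical axis) against that over the 3 DP-DSC libraries (horizontal axis) for each member, with circles for the large and triangles for the small subunit; the dashed line marks equal values. Of the 76 points, 63 lie above the line.

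Each pair of TP-DSC libraries had a larger median difference than each pair of DP-DSC libraries. A member differed by a median of 1.42-fold between TP-DSCs replicates 1 and 2, 1.43-fold between 1 and 3 and 1.56-fold between 2 and 3. In DP-DSCs these medians were 1.19-fold between replicates 1 and 2, 1.13-fold between 1 and 3 and 1.16-fold between 2 and 3. TP-DSCs replicate 1 and DP-DSCs replicate 1, both of submission 3840, differed by a median of 1.20-fold, the smallest between the populations. Between TP-DSCs replicates 2 and 3 and DP-DSCs replicates 2 and 3, all of the other submission, these medians were 1.300 to 1.345-fold. Pairs of a TP-DSC and a DP-DSC library from different submissions had 1.250 to 1.345-fold, so sharing a submission did not go with a smaller difference throughout.

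The deviations were not shared by the module as a whole. In TP-DSCs replicates 1, 2 and 3, 12, 23 and 23 of the 76 members were over 1.5-fold from their own median over the 6 libraries, against 1, 4 and 0 in DP-DSCs replicates 1, 2 and 3. The members' median absolute log2 deviation was 0.225, 0.325 and 0.364 in TP-DSCs, against 0.118, 0.117 and 0.135 in DP-DSCs. For other tested genes in the members' range of mean CPM it was larger in each library. It was 0.290, 0.361 and 0.371 in TP-DSCs, against 0.197, 0.224 and 0.150 in DP-DSCs. TP-DSCs replicate 3 was the lowest of the 6 libraries for 31 members and the highest for 13, and TP-DSCs replicate 2 was the highest for 28 and the lowest for 17. Genes of the same subunit deviated in opposite directions within a library, as Mrps24 and Mrps12 did in TP-DSCs replicate 3, where they reached 104 and 24.8 CPM.

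**Figure D5:**
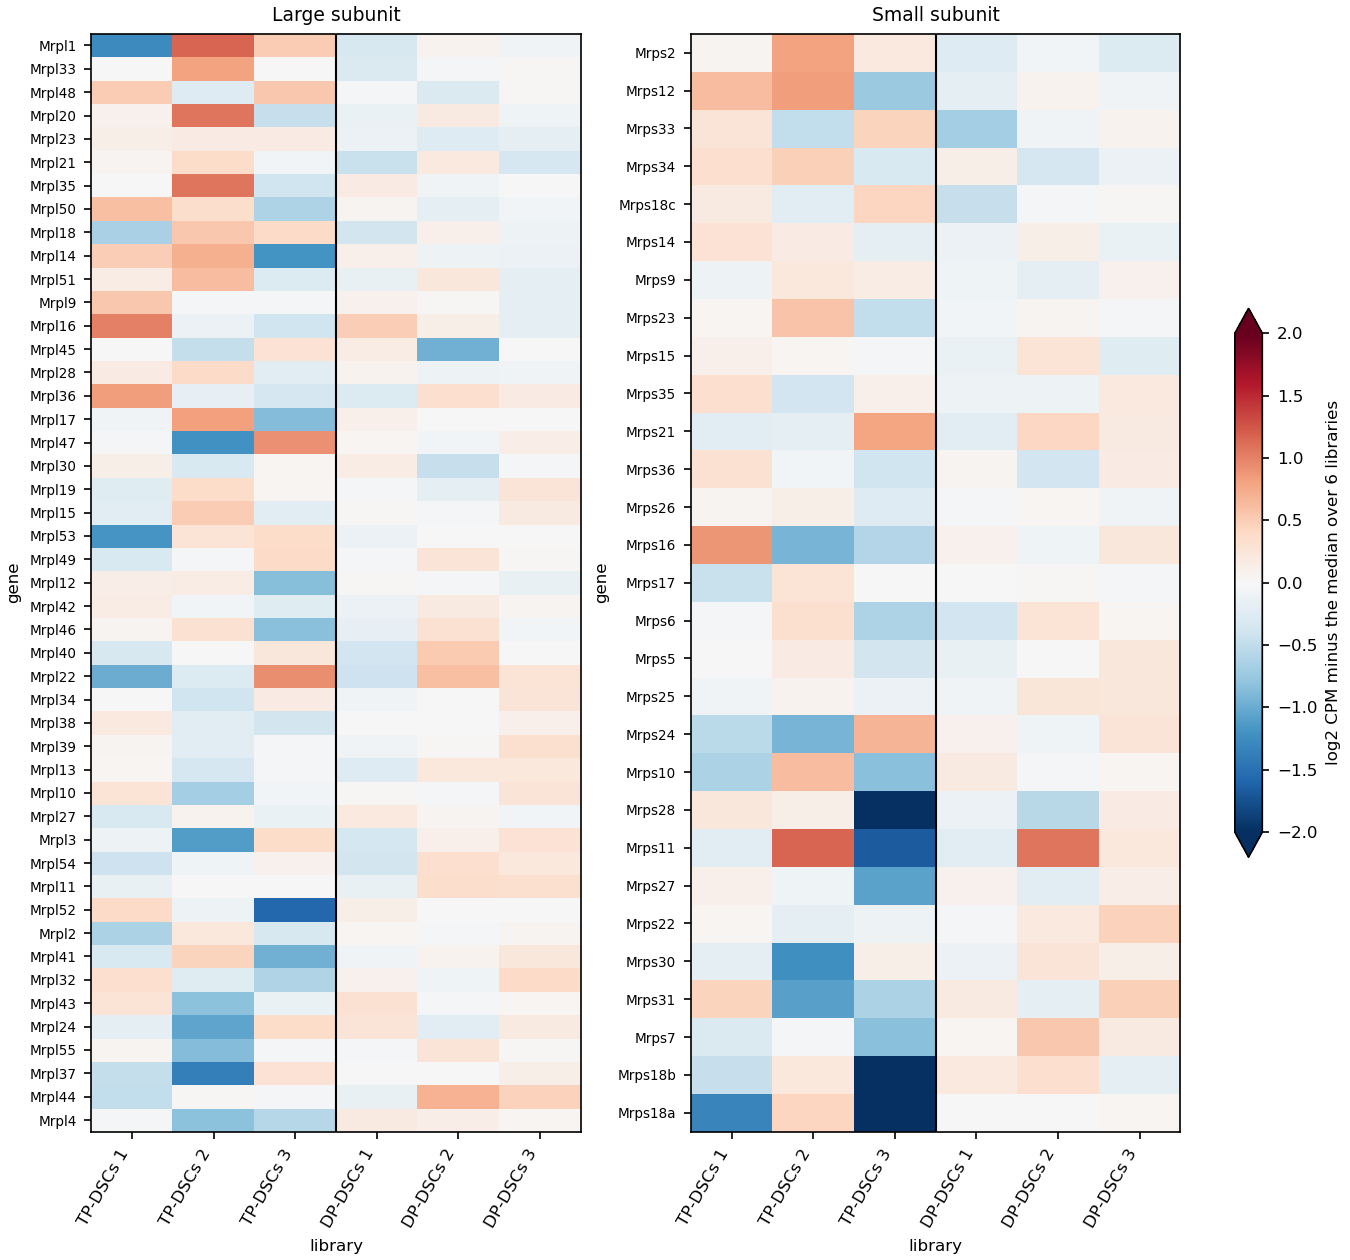
Log2 CPM of each member minus its median over the 6 libraries, for the large (left) and the small subunit (right), with TP-DSC libraries left of the black line and DP-DSC libraries right of it; colours end at -2 and 2, and the library of Mrps28 without reads is drawn at the floor of 3 counts. Strong colours of both signs stand in the TP-DSC columns, where 12, 23 and 23 members were over 1.5-fold from their median, and few in the DP-DSC columns. Other genes in the members' range of mean CPM, not drawn, also deviated more in the TP-DSC libraries.

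The other genes of mitochondrial translation were likewise without calls. Of 7 ribosome proteins with other names, 5 lay above 0, with a median log2 fold change of 0.13. Dap3, a GTP-binding protein of the small subunit, had 107, 115 and 115 CPM in TP-DSCs, against 106, 104.8 and 110.03 CPM in DP-DSCs. The groups did not overlap only for Mrp63, a large subunit protein, with 28.2, 38.8 and 29.9 CPM in TP-DSCs, against 26.8, 25.5 and 24.6 CPM in DP-DSCs. Its log2 fold change was 0.31 ± 0.32 (SE), with an adjusted p of 0.999 in edgeR. Over all genes tested, 3.87% had all TP-DSC libraries above all DP-DSC libraries. Fold changes of the others were 0.34 for Chchd1, 0.26 for Ptcd3, 0.13 for Ict1, -0.34 for Aurkaip1 and -0.43 for Gadd45gip1 on the log2 scale.

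Of 28 tested genes for ribosome assembly, 13 lay above 0, with a median of -0.06. Mettl17, a factor for the small subunit, had 3.49, 3.94 and 4.63 CPM in TP-DSCs, against 9.27, 9.92 and 8.58 CPM in DP-DSCs. All TP-DSC libraries were below all DP-DSC libraries, with a log2 fold change of -1.22 ± 0.85 and an adjusted p of 0.999 in edgeR and 0.126 in DESeq2. Ngrn, needed for the large ribosomal RNA, had 54.6, 59.3 and 68.4 CPM in TP-DSCs, against 49.0, 39.6 and 47.1 CPM in DP-DSCs, without overlap and with a log2 fold change of 0.40 ± 0.23. Mpv17l2, an inner membrane protein linked to ribosome assembly, had 35.2, 34.4 and 12.2 CPM in TP-DSCs, against 49.3, 49.0 and 37.5 CPM in DP-DSCs, also without overlap and with a log2 fold change of -0.73 ± 0.46. The adjusted p of both was 0.999 in edgeR. Of the 28 genes, 1 had all TP-DSC libraries above all DP-DSC libraries and 4 had the opposite order. Over all genes tested these shares were 3.87% and 8.56%.

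Of 18 tested translation factors and helpers, 10 lay above 0, with a median of 0.04. Tsfm, the exchange factor that recharges the elongation factor Tufm, had 55.8, 102 and 66.0 CPM in TP-DSCs, against 34.4, 57.8 and 40.3 CPM in DP-DSCs. TP-DSCs replicate 1 lay below DP-DSCs replicate 2, and the log2 fold change was 0.74 ± 0.29 with an adjusted p of 0.683 in edgeR. Guf1, a translational GTPase, had 37.7, 73.9 and 73.4 CPM in TP-DSCs, against 40.6, 39.6 and 31.7 CPM in DP-DSCs. Oxa1l, which inserts the new proteins into the inner membrane, had 40.3, 13.7 and 21.3 CPM in TP-DSCs, against 44.9, 35.8 and 36.7 CPM in DP-DSCs. TP-DSCs replicate 1 overlapped the DP-DSC libraries in both genes. Among all 18 genes, 1 had all TP-DSC libraries above all DP-DSC libraries and 1 had the opposite order. These shares were 3.87% and 8.56% over all genes tested.

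Of 13 tested genes for the upkeep and transcription of mitochondrial DNA, 6 lay above 0. Polrmt, the mitochondrial RNA polymerase, had 29.3, 24.3 and 36.2 CPM in TP-DSCs, against 37.9, 51.9 and 42.5 CPM in DP-DSCs, without overlap and with an adjusted p of 0.991 in edgeR. Pnpt1, which degrades RNA, differed by 0.49 ± 0.31 and Peo1, the DNA helicase, by 0.45 ± 0.28 on the log2 scale. Of 11 regulators of mitochondrial genes, 7 lay above 0, with a median of 0.21. Gabpa, which binds the ETS letters shown above, had 74.2, 52.1 and 94.3 CPM in TP-DSCs, against 36.7, 56.7 and 40.2 CPM in DP-DSCs. TP-DSCs replicate 2 lay below DP-DSCs replicate 2, and the log2 fold change was 0.72 ± 0.29 with an adjusted p of 0.729 in edgeR. Its partner Gabpb2 had 101, 95.3 and 93.1 CPM in TP-DSCs, against 76.4, 86.1 and 76.7 CPM in DP-DSCs, without overlap, and the coactivator Pprc1 differed by 0.33 ± 0.22 on the log2 scale. Nrf1 differed by -0.06 ± 0.40 and Yy1 by 0.21 ± 0.19, each with an adjusted p of 0.999 in edgeR. Of the 13 upkeep and transcription genes, 1 had all TP-DSC libraries above all DP-DSC libraries and 1 had the opposite order. Of the 11 regulators, 2 had all TP-DSC libraries above and 0 had all below. The shares over all genes tested were 3.87% above and 8.56% below.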

How the data were processed

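The authors deposited, for each of 6 libraries of polyadenylated RNA made with a stranded kit from Trizol extracts, raw read counts per gene symbol. STAR 2.7.3a, Partek, DESeq2 3.5 and build mm10 are named in the submitters' processing notes. Their roles, the annotation and the strand setting of the counting are not stated, so reads of overlapping genes (23 members share exon bases with another coding gene) may have moved between them. The 2 rows for reads in no gene and ambiguous reads (1.09 to 1.86%) were left out of totals and tests. The cell subtype label gave the groups, and the extraction protocol calls the samples of each independent; replicate numbers follow deposit order and pair nothing. Replicates differed by a chi-square of 103 to 304 per degree of freedom over genes, so none was a duplicate.

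CPM values are counts over the gene read total. Groups were compared in R 4.3.3 with edgeR 4.0.16 (filterByExpr with a minimum count of 10 and total of 15, TMM scaling, quasi-likelihood F test, Benjamini-Hochberg over 11925 genes at 0.05); the SE is the log2 fold change over the square root of F. The biological coefficient of variation was 0.7495. On simulated counts for this comparison with 200 changed genes among 11925, edgeR recovered 3.6% of the genes set to differ 2-fold and 37.2% of the genes set to differ 4-fold, with a mean of 3.2 false calls per simulation (5 in all). Alternatives were DESeq2 1.42.0, its size factors, limma-voom (limma 3.58.1), gene read totals only, other filters, the submission, leaving out each library and, added after seeing the data, genes with reads in all 6 libraries. Lengths are the median of a gene's basic protein-coding transcripts in GENCODE M21 (GRCm38, the assembly of mm10), which also gave coordinates; promoter windows are from RefSeq.

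Members and gene lists were chosen with earlier results of these data known. Named members are, per subunit, the 4 with the smallest p in each direction, the 3 highest and 3 lowest per kilobase, any without reads in a library, and Mrpl12, Mrpl45, Mrps12, Mrps18a, Mrps18b, Mrps18c, Mrps30 and Mrps36; other lists give the 3 genes with the smallest p, and ribosome proteins of other names are all given. Nrf1, Yy1, Mrps11 (in a figure), Mrps23, Mrpl10, Mrpl11, Mrpl55 and Sars2 fall outside this rule and were chosen after values were seen. Lists were described by counts and medians, with no test of the list.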

Additional observations from a re-analysis of the deposited data

How the results depend on the processing

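The count of members past the threshold was 0 under every alternative run, and 94 of the 96 alternative values of the summaries moved by less than the spread between replicates or, for counts, by less than 1.5 times. Both subunit medians changed sign without TP-DSCs replicate 3. DESeq2 called 267 of all genes, where edgeR called 0. The median log2 fold change of all genes, -0.02 in edgeR, was -0.12 with DESeq2, -0.15 with limma-voom and -0.16 with no filter. Over the fits that left out a library in turn, the median log2 fold change ranged from -0.134 to 0.0331 in the large subunit and from -0.16 to 0.11 in the small subunit, their difference from -0.07 to 0.07, and the log2 ratio of the summed level from -0.03 to 0.07 in the large and -0.10 to 0.05 in the small subunit, with 0 members and 0 genes called in each. In these fits 13 named members changed sign, their log2 fold changes ranging from -0.30 to 0.21 for Mrpl12, -0.12 to 0.15 for Mrpl19, -0.12 to 0.66 for Mrpl20, -0.16 to 0.18 for Mrpl30, -0.20 to 0.58 for Mrpl35, -0.15 to 0.37 for Mrpl45, -0.51 to 0.45 for Mrpl47, -0.20 to 0.0567 for Mrps5, -0.33 to 0.22 for Mrps21, -0.79 to 0.0734 for Mrps24, -0.12 to 0.12 for Mrps26, -0.83 to 0.33 for Mrps28 and -0.27 to 0.20 for Mrps36. The other 17 named members kept their sign in these fits, with ranges of -0.48 to -0.13 for Mrpl2, 0.18 to 0.46 for Mrpl21, 0.23 to 0.35 for Mrpl23, 0.10 to 0.54 for Mrpl33, -0.86 to -0.09 for Mrpl37, -0.90 to -0.37 for Mrpl4, -0.74 to -0.41 for Mrpl44, 0.19 to 0.62 for Mrpl48, 0.20 to 0.80 for Mrps12, -1.78 to -0.23 for Mrps18a, -1.11 to -0.21 for Mrps18b, 0.15 to 0.46 for Mrps18c, 0.33 to 0.66 for Mrps2, -0.28 to -0.12 for Mrps25, -0.67 to -0.11 for Mrps30, 0.15 to 0.52 for Mrps34 and -0.77 to -0.42 for Mrps7. All of these 17 except Mrps25 were named for the smallest p in their direction in these same data, and none of the 13 was. That choice favours a kept sign, so the contrast is no measure of stability. For Mrpl4, Mrpl23, Mrps2 and Mrps7, the groups did not overlap in CPM, which leaves little room for a change of sign. With limma-voom, Mrps18a was at -1.51, Mrps18b at -1.13 and Mrps28 at -3.52. Mrps26 turned to 0.0108 with DESeq2 size factors, 0.0105 with DESeq2 and 0.0206 with genes that had reads in all 6 libraries. Mrps36 turned to -0.0239 with limma-voom, -0.0133 with no filter, -0.0247 with the submission as a block and -0.20 in submission 4140 alone. Mrpl19 turned to -0.00036 with no filter. The members that changed sign lay within 1 SE of 0 in edgeR. So did Mrpl2, Mrps18c and Mrps25, which kept their sign. The cause of the changes was not tested.

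No paired analysis was possible because the labels give no replicate number shared by the populations. In the simulated counts, whose spread is that of all genes and not that of the members, edgeR recovered 3.6% of genes set to differ 2-fold. The median member had 775 to 1503 reads in TP-DSC libraries and 1408.5 to 1665 in DP-DSC libraries.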
